A study of Mus musculus with 14 samples.

Results

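The 44 genes described here encode the proteins that copy DNA and that supply its building blocks. They were chosen by name and by known function from among the 17149 genes measured, with earlier results of these data known. Each was represented by the probe set with the highest mean signal over the 14 arrays. Expression was measured on Affymetrix mouse arrays in 4 populations of mouse prostate cells without transgene or drug treatment. UGE is the epithelium of the fetal urogenital sinus of C57BL/6 mice at embryonic day 16 (3 arrays), the tissue from which the prostate buds. Sca-1Hi (3 arrays), Sca-1Lo (4 arrays) and Sca-1Neg (4 arrays) are cells of adult males 6 to 8 weeks old, labelled C57BL, taken from the duct region next to the urethra and sorted for the surface antigen Sca-1 into cells that stain brightly, cells of middle to dim staining and unstained cells. The study uses them as fetal stem cells, adult stem cells, transit-amplifying cells and the most differentiated cells, so each comparison asks how the replication genes differ between these stages. The sort used 1 antigen, and any adult cell that carries or lacks it falls into the gates. The labels do not say whether replicates came from separate animals, so the p-values measure the spread between these arrays, which may be partly technical.

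Before a cell enters S phase, the origin recognition complex marks the origins, and Cdc6 and Cdt1 load the ring-shaped Mcm2-7 helicase onto them. This step is called licensing. The kinases Cdc7-Dbf4 and cyclin-dependent kinase then fire the origins by joining Cdc45 and the GINS complex to the helicase, after which primase and the DNA polymerases copy both strands, held in place by the sliding clamp Pcna. Many of these genes are transcribed mainly in dividing cells, and in the adult prostate at rest few cells divide. Transcription factors of the E2F family are known to bind promoters of replication genes.

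To show what such promoters look like, the 250 bases before the start site were read from the RefSeq promoters of build GRCm38.p6 for the 36 members that have one there, and searched for the E2F letters TTTCCCGC, TTTCGCGC, TTTGCCGC and TTTGGCGC and for the letters CCAAT, each on both strands. The E2F letters stood in 7 of 36 members (19.4%), against 2.16% of the 27025 genes with a promoter in the same table. CCAAT letters stood in 22 members (61.1%), against 37.5% of all genes, and 6 members held both (16.7%), against 0.966%. A gene with several start sites counts once, and matches in letters are not measured binding. Of these 7 members 6 were higher in UGE than in Sca-1Neg, and the 7th, *Orc1*, was called on 1 of its 2 probe sets and not on the other. Of all 44 genes 38 were higher (86.4%), so members with the E2F letters were called about as often as the whole set. The stretches around the E2F letters of these 7 members are shown. Capitals mark the E2F letters, and each stretch ends at or before the start site and runs 5′ to 3′ on the gene's strand.
Mcm5, chr8:75109330-75109393, plus strand: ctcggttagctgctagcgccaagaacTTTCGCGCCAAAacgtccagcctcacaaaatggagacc
Mcm6, chr1:128359719-128359841, minus strand: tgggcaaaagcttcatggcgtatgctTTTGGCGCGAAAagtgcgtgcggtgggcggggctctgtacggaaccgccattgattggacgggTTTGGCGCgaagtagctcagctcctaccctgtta
Mcm7, chr5:138172015-138172074, minus strand: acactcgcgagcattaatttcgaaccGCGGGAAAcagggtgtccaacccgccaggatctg
Cdc6, chr11:98907987-98908046, plus strand: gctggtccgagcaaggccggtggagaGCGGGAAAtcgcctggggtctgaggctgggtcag
Pola1, chrX:93632260-93632319, minus strand: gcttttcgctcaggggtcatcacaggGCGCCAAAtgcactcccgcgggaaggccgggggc
Rfc3, chr5:151651209-151651244, minus strand: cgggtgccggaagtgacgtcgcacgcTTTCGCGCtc
Orc1, chr4:108579401-108579453, plus strand: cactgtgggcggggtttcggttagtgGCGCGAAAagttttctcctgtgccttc
*Mcm6* held 3 matches, of which the first pair overlap, and *Mcm5* held 2 that overlap, the letters of each pair lying on opposite strands. The letters lay 10 bases before the start site in *Rfc3* and 165 bases before it in *Mcm7*.

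The values are signals on a linear scale, and differences are on the log2 scale, with a standard error (SE) from a single limma fit of all 14 arrays. A gene is called higher or lower where the Benjamini-Hochberg adjusted p was under 0.05 and the change over 0.81 on the log2 scale. Most of the replication genes had higher signals in UGE than in each adult population. Of the 44 genes, 38 were higher in UGE than in Sca-1Neg (86.4%) and none was lower, against a background of 16.3% of all genes called higher and 12.9% called lower. The median difference of the 44 was 1.93, against 0.07 over all genes. In UGE versus Sca-1Hi 34 were higher and none lower (background 15.8% and 12.0%, median difference 1.69), and in UGE versus Sca-1Lo 35 were higher and none lower (background 13.4% and 12.2%, median difference 1.78). The 3 comparisons share the UGE arrays. The UGE mean was the highest of the 4 populations for 42 genes, the exceptions being *Orc1* and *Cdc45*. All 3 UGE arrays lay above all 4 Sca-1Neg arrays for 41 of the 44, against 20.1% of all genes. Against each of the adult populations 32 genes were higher in UGE, and *Orc1*, *Orc4*, *Rpa1* and *Fen1* were called against none. How many of all genes were higher in all 3 comparisons at once was not counted.

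**Figure D1:**
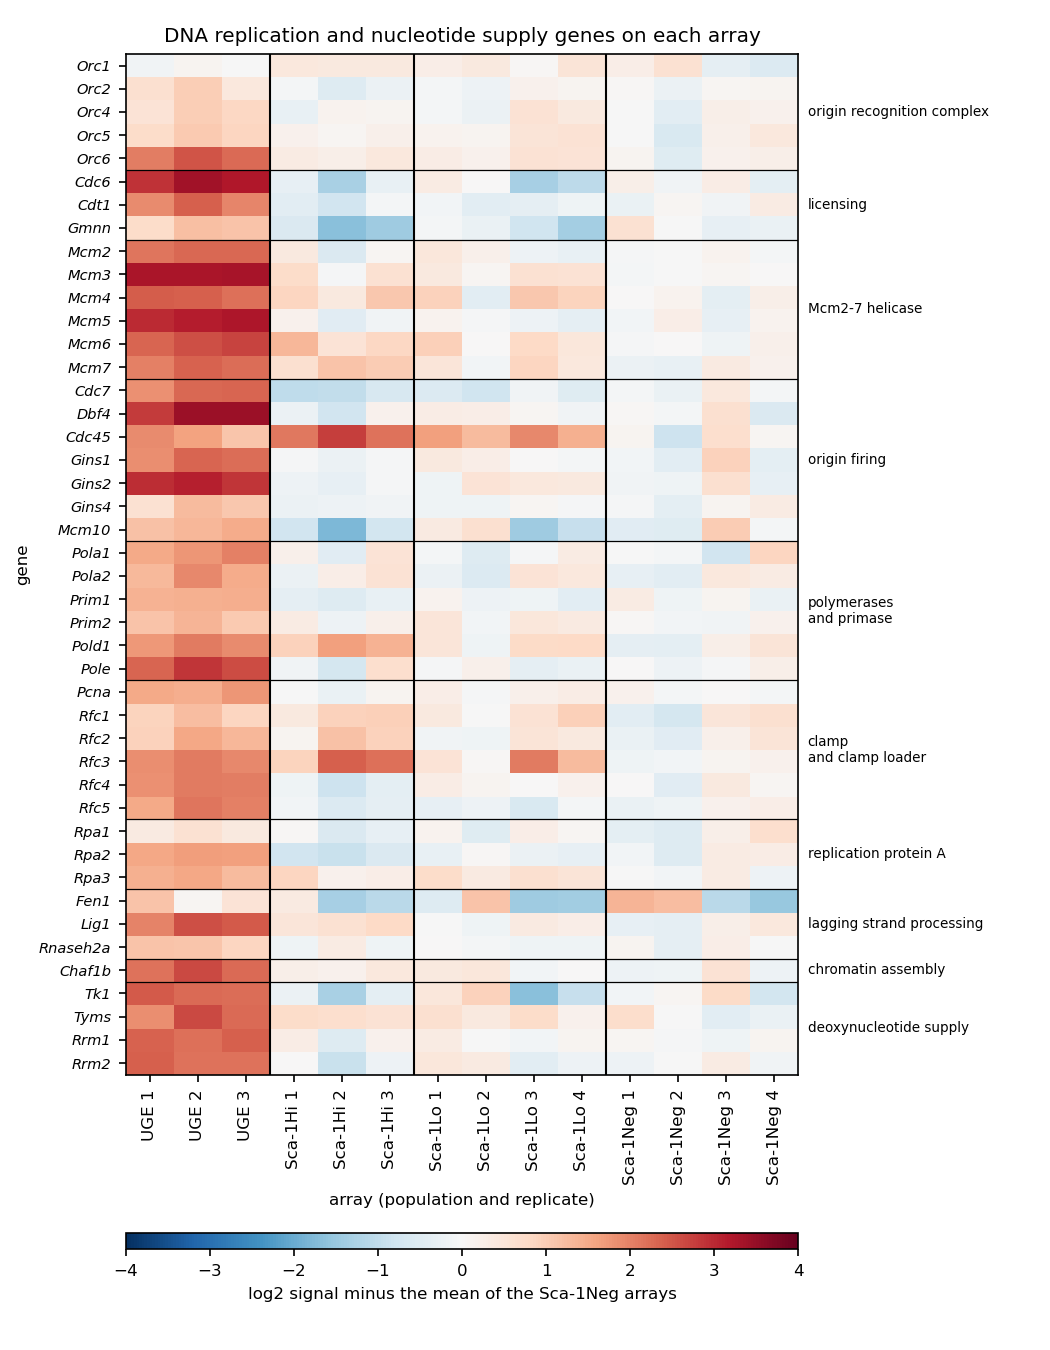
Log2 signal of each of the 44 genes (rows, grouped by role) on each of the 14 arrays (columns, UGE at the left and Sca-1Neg at the right), minus the mean of the 4 Sca-1Neg arrays for that gene; red is higher and blue lower. The 3 UGE columns are red for nearly all rows, with *Orc1*, *Rpa1* and *Fen1* as pale exceptions, and *Cdc45* is red on the Sca-1Hi and Sca-1Lo arrays as well.

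The median log2 signal of the 44 genes was 9.18, 9.61 and 9.40 on the UGE arrays, against 7.67 to 7.95 on Sca-1Hi, 7.69 to 7.88 on Sca-1Lo and 7.40 to 7.92 on Sca-1Neg arrays. The adult ranges overlap each other, and the UGE range lies above all of them. Markers of other cells moved with the same comparison. All 8 secreted products of the adult gland were lower in UGE than in Sca-1Neg, and so were 11 of 19 leukocyte markers, 7 of 10 endothelial markers and 8 of 8 smooth muscle and pericyte markers, while 7 of 10 epithelial markers were higher. No epithelial marker was at or under 20 on all arrays of any population. Of 10 fibroblast and mesenchyme markers 2 were lower in UGE than in Sca-1Neg. Against Sca-1Hi and against Sca-1Lo, UGE was lower in 10 of 10 endothelial markers and in 7 of 8 smooth muscle markers each, in 7 and 8 of 8 secretion genes and in 3 and 4 of 19 leukocyte markers, and in 1 and 2 of 10 fibroblast and mesenchyme markers, with 1 leukocyte marker higher in each, and no epithelial marker was called. The summed signal of the leukocyte markers was 1926 to 2957 in UGE and 7176 to 64437 in Sca-1Neg, and that of the 8 secretion genes 57.0 to 470.1 in UGE and 62884 to 88869 in Sca-1Neg. *Pbsn*, *Svs2*, *Svs3a* and *Spink1* among the secretion genes, *Pecam1* and *Tie1* among the endothelial ones, *Cd3g* and *Lmod1* were at or under a signal of 20 on every UGE array. In sorted or dissected populations measured in bulk, fewer cells of a type and less RNA per cell cannot be told apart, and the part that cell makeup plays in the differences was not tested. RNA integrity and labelling can be read from the log2 ratio of the 3' to the 5' probe set of *Gapdh*. This ratio was 1.83 to 2.38 in UGE and 3.07 to 3.48 in Sca-1Hi, without overlap. In Sca-1Lo it was 1.98 to 3.22 and in Sca-1Neg 1.66 to 2.75. For *Actb* the ratio was 1.54 to 2.09 in UGE and 1.59 to 2.77 in Sca-1Hi, which overlap. The part of RNA in the differences was not tested. The level of Sca-1's own gene was not analysed here.

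The origin recognition complex was the role with the lowest share of calls. Of its 5 measured members, *Orc5* and *Orc6* were higher in UGE than in Sca-1Neg, and *Orc1*, *Orc2* and *Orc4* were not called. *Orc6*, which joins the complex last and less tightly than the core subunits, had signals of 549, 759 and 642 in UGE, 167, 158 and 178 in Sca-1Hi, 166, 151, 200.4 and 196 in Sca-1Lo and 143, 94.6, 149 and 159 in Sca-1Neg (log2 difference 2.27 ± 0.24 SE, adjusted p = 1.56e-05). The UGE arrays of *Orc6* lay far above all adult arrays, which overlapped. The core subunit *Orc5* had 469, 584 and 515 in UGE, 320.1, 298 and 327 in Sca-1Hi, 314, 302, 408 and 422 in Sca-1Lo and 279, 185, 326 and 379 in Sca-1Neg (log2 difference 0.88 ± 0.26 SE, adjusted p = 0.0226), a much smaller step. Its core partner *Orc2* had 378, 484 and 325 in UGE, 231, 171 and 206 in Sca-1Hi, 229.9, 213, 273 and 259.9 in Sca-1Lo and 249, 206, 258 and 264 in Sca-1Neg. The UGE arrays did not overlap the adult ones, and the difference from Sca-1Neg, 0.68 ± 0.22 SE with an adjusted p of 0.0362, stayed under the fold minimum. For *Orc4* the signals were 459.7, 617 and 559 in UGE, 253, 348 and 340.3 in Sca-1Hi, 296, 269, 464 and 410.4 in Sca-1Lo and 311, 236, 369.7 and 355 in Sca-1Neg (log2 difference 0.79 ± 0.26 SE, adjusted p = 0.0404), again under the fold minimum. *Orc2*, *Orc4* and *Orc5* thus sat within a range of 0.68 to 0.88 on the log2 scale above Sca-1Neg.

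*Orc1*, the large ATP-binding subunit, has 2 probe sets on the array, of which 1 was called. Its brighter probe set, which represents the gene here, had 48.7, 57 and 52.8 in UGE, 72.3, 70.6 and 69.6 in Sca-1Hi, 64, 69.6, 55.2 and 75.7 in Sca-1Lo and 64.9, 81.2, 41.9 and 36.8 in Sca-1Neg (log2 difference -0.02 ± 0.27 SE, adjusted p = 0.968). The UGE arrays lay inside the Sca-1Neg range and below every Sca-1Hi array. The other probe set had 290.4, 315 and 409.9 in UGE, 19.3, 12.4 and 16.5 in Sca-1Hi, 35.9, 51.5, 13.8 and 12 in Sca-1Lo and 17.3, 22.8, 49.9 and 12.8 in Sca-1Neg (log2 difference from Sca-1Neg 3.90 ± 0.52 SE, adjusted p = 1.18e-04). On it every UGE array was above every adult array, and all 3 Sca-1Hi arrays were under 20. The promoter stretch shown for *Orc1* holds the E2F letters 27 bases before the start site.

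The licensing factors were all higher in UGE than in each adult population. *Cdc6*, the loader of the helicase, had 344, 473 and 423 in UGE, 36.7, 18.7 and 37.5 in Sca-1Hi, 58.4, 46.8, 18.3 and 22.6 in Sca-1Lo and 55, 41.7, 57.2 and 35.3 in Sca-1Neg (log2 difference 3.14 ± 0.40 SE, adjusted p = 7.96e-05). It was the only member with arrays under the signal of 20, on 1 Sca-1Hi and 1 Sca-1Lo array. Its partner *Cdt1* had 1479, 2104 and 1560.5 in UGE, 299.5, 237 and 382 in Sca-1Hi, 369, 296, 312 and 352 in Sca-1Lo and 331, 421, 364 and 501 in Sca-1Neg (log2 difference 2.08 ± 0.24 SE, adjusted p = 3.98e-05). *Gmnn* encodes geminin, the inhibitor of Cdt1 that blocks a new round of licensing after S phase has begun. Its signals were 1060.5, 1474 and 1405 in UGE, 425, 201 and 238 in Sca-1Hi, 606, 535, 369 and 248 in Sca-1Lo and 964, 628, 510.3 and 534 in Sca-1Neg (log2 difference 1.03 ± 0.36 SE, adjusted p = 0.0486). Here the order of the adult populations was Sca-1Neg, Sca-1Lo and Sca-1Hi from high to low, and the call against Sca-1Neg was close to the threshold.

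All 6 genes of the Mcm2-7 helicase were higher in UGE than in every adult population, with differences from Sca-1Neg between 2.20 and 3.28. *Mcm3* had 955, 965 and 983 in UGE, 165, 97.6 and 153 in Sca-1Hi, 131, 106, 153 and 149.5 in Sca-1Lo and 94.5, 99, 105 and 101 in Sca-1Neg (log2 difference 3.28 ± 0.23 SE, adjusted p = 6.79e-07). The 3 UGE arrays lay close together, and this was the largest difference from Sca-1Neg among the 44 genes. *Mcm5*, whose protein forms the gate of the ring with Mcm2, had 2097, 2371 and 2539.8 in UGE, 299, 193 and 241 in Sca-1Hi, 297, 256, 231 and 206 in Sca-1Lo and 250.2, 324, 212 and 296 in Sca-1Neg (log2 difference 3.12 ± 0.24 SE, adjusted p = 1.26e-06). *Mcm6*, a subunit of the catalytic core with Mcm4 and Mcm7, had 2018, 2367 and 2577 in UGE, 1009, 576 and 701 in Sca-1Hi, 776, 405, 689.8 and 544 in Sca-1Lo and 385, 406, 356 and 454 in Sca-1Neg (log2 difference 2.53 ± 0.27 SE, adjusted p = 1.90e-05). In *Mcm6* a step between the adult populations can be seen as well, with every Sca-1Hi array above every Sca-1Neg array. *Mcm7* had 4325, 5530.3 and 5099.5 in UGE, 1679.6, 2370.3 and 2178 in Sca-1Hi, 1492, 992, 1971 and 1458 in Sca-1Lo and 917, 886, 1379.7 and 1206 in Sca-1Neg (log2 difference 2.20 ± 0.27 SE, adjusted p = 5.96e-05), the same layout. *Mcm2* (1729 to 1921 in UGE, 369.7 to 431 in Sca-1Neg) and *Mcm4* (2270.3 to 2681 in UGE, 377 to 583 in Sca-1Neg) were higher by 2.24 and 2.33. All other probe sets of these 6 genes were also called higher in UGE than in Sca-1Neg, with differences from 1.64 to 3.24.

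Of the 7 origin firing genes, 6 were higher in UGE than in Sca-1Neg. *Dbf4*, the regulatory subunit that activates the kinase Cdc7, had 851, 1295 and 1293 in UGE, 103, 71.3 and 138 in Sca-1Hi, 148, 146, 128 and 109 in Sca-1Lo and 125, 114, 187 and 81.2 in Sca-1Neg (log2 difference 3.21 ± 0.31 SE, adjusted p = 8.73e-06). *Cdc7* itself had 644, 892 and 912 in UGE, 89.5, 92.1 and 116 in Sca-1Hi, 125, 104, 166 and 130.0 in Sca-1Lo and 173, 151, 242 and 171 in Sca-1Neg (log2 difference 2.15 ± 0.25 SE, adjusted p = 3.74e-05). Both kinase subunits thus had all UGE arrays above all adult arrays, though the second probe set of *Cdc7* was not called (log2 difference 0.18 ± 0.38 SE, adjusted p = 0.761). *Gins2*, a subunit of the GINS complex that holds the helicase in its active form, had 699, 775 and 657 in UGE, 77.6, 72 and 87.4 in Sca-1Hi, 80.6, 132, 120.3 and 118 in Sca-1Lo and 82.6, 80.4, 139 and 71.5 in Sca-1Neg (log2 difference 2.97 ± 0.27 SE, adjusted p = 4.32e-06). Its fellow subunits *Gins1* and *Gins4* were higher by 2.13 and 0.99, so *Gins4* had the smallest difference of the complex. *Mcm10*, a firing factor that is not part of the ring, had 251, 282 and 314 in UGE, 66.1, 32.5 and 66.6 in Sca-1Hi, 143, 175, 42.1 and 59.1 in Sca-1Lo and 81.8, 80.1, 225 and 106 in Sca-1Neg (log2 difference 1.33 ± 0.50 SE, adjusted p = 0.0643). All UGE arrays of *Mcm10* lay above the adult ones, but the Sca-1Neg arrays spread widely and the call was missed, while it was made against Sca-1Hi and against Sca-1Lo. The other, dimmer probe sets of *Mcm10* were called against no adult population. On these UGE differed by -0.0035 and 0.30 from Sca-1Hi and by 0.51 and -0.082 from Sca-1Lo.

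*Cdc45*, the helicase partner that the firing kinases recruit, did not follow the rest of its role. Its signals were 253, 208 and 148 in UGE, 295, 471 and 309.5 in Sca-1Hi, 216, 165, 262 and 183 in Sca-1Lo and 73.8, 38.5, 108 and 72.1 in Sca-1Neg. All 3 Sca-1Hi arrays were above all UGE arrays, Sca-1Lo overlapped UGE, and Sca-1Neg was below the others. The gene was higher than in Sca-1Neg in UGE (log2 difference 1.53 ± 0.34 SE, adjusted p = 0.00469), in Sca-1Hi (log2 difference 2.35 ± 0.34 SE, adjusted p = 0.00108) and in Sca-1Lo (log2 difference 1.57 ± 0.32 SE, adjusted p = 0.0232), and UGE did not pass the test against Sca-1Hi (log2 difference -0.82 ± 0.36 SE, adjusted p = 0.114). A second, dimmer probe set of *Cdc45* read otherwise, with 283, 282 and 208 in UGE, 53.9, 42.1 and 31.6 in Sca-1Hi, 43.9, 42.9, 38.4 and 45.6 in Sca-1Lo and 54, 42.3, 50.2 and 62.4 in Sca-1Neg. On that probe set UGE was higher than Sca-1Neg (2.30 ± 0.24 SE, adjusted p = 1.58e-05) as for other firing genes, and Sca-1Hi was not (-0.32 ± 0.24 SE, adjusted p = 0.421). It was also higher in UGE than in Sca-1Hi (2.62 ± 0.26 SE, adjusted p = 1.04e-05) and Sca-1Lo (2.58 ± 0.24 SE, adjusted p = 6.00e-06), so the 2 probe sets share only the call of UGE against Sca-1Neg.

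**Figure D2:**
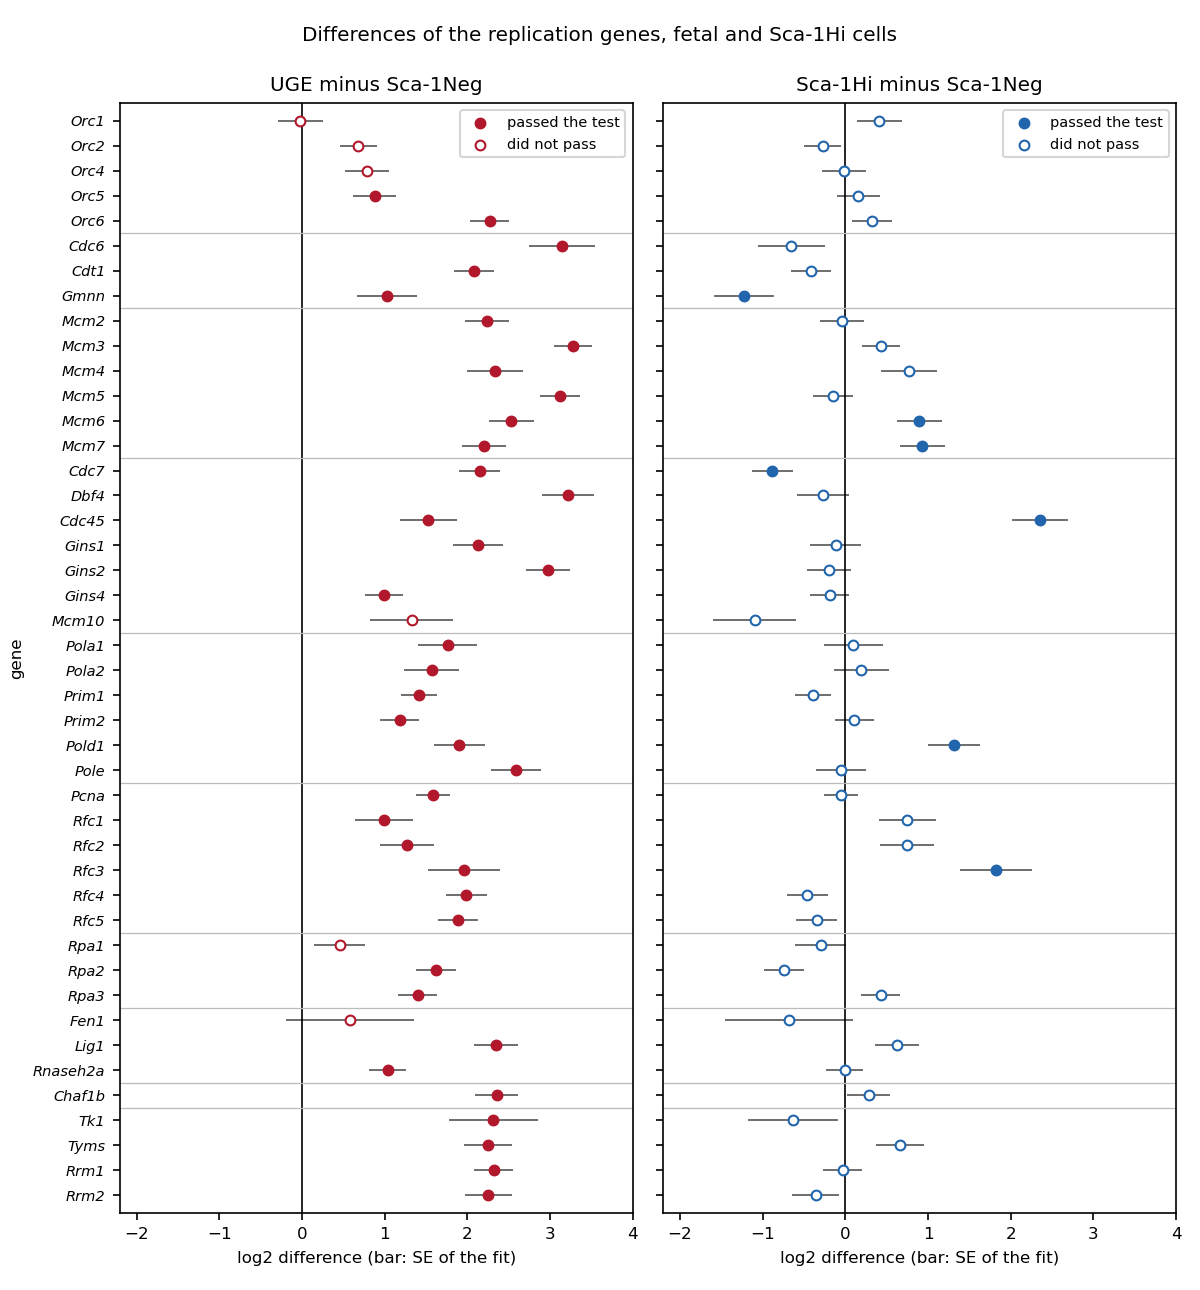
Log2 difference of each of the 44 genes, in the order of the roles, for UGE minus Sca-1Neg (left) and Sca-1Hi minus Sca-1Neg (right). Points are the estimates of the fit, bars 1 SE, filled points passed the test and open points did not. In the left panel 38 points are filled, all to the right of 0, and in the right panel 7 are filled, 5 to the right and 2 to the left.

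The 6 genes of the polymerases and primase were all higher in UGE than in Sca-1Neg. *Pole*, the catalytic subunit of the leading strand polymerase, had 255, 371 and 308 in UGE, 46.6, 31.3 and 81.7 in Sca-1Hi, 49.6, 58.8, 39.7 and 43 in Sca-1Lo and 51.7, 44, 49.8 and 60.1 in Sca-1Neg (log2 difference 2.59 ± 0.30 SE, adjusted p = 3.84e-05). *Pold1*, its counterpart on the lagging strand, had 620.0, 789 and 694 in UGE, 353, 585 and 485 in Sca-1Hi, 259.8, 167, 314 and 322 in Sca-1Lo and 146, 143, 221 and 264 in Sca-1Neg (log2 difference 1.90 ± 0.31 SE, adjusted p = 5.48e-04). For *Pole* the adult populations overlap, whereas for *Pold1* Sca-1Hi lay above Sca-1Lo and Sca-1Neg, and UGE was not called against Sca-1Hi (log2 difference 0.59 ± 0.33 SE, adjusted p = 0.211). A second probe set of *Pold1* was called higher in UGE than in Sca-1Hi (0.86 ± 0.25 SE, adjusted p = 0.0219). *Pola1*, the catalytic subunit of the polymerase that extends the RNA primers, had 376, 448 and 530.1 in UGE, 153, 96.4 and 191 in Sca-1Hi, 125, 91.6, 129 and 167 in Sca-1Lo and 132, 124, 77.9 and 237 in Sca-1Neg (log2 difference 1.76 ± 0.36 SE, adjusted p = 0.0027). Its accessory subunit *Pola2* was higher by 1.57 ± 0.34 SE, and the primase subunits *Prim1* and *Prim2* by 1.42 ± 0.22 SE and 1.18 ± 0.23 SE. The second probe set of *Pola2* was not higher in UGE (-0.07 ± 0.24 SE, adjusted p = 0.85).

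Of the sliding clamp and its loader, all 6 genes were higher in UGE than in Sca-1Neg. *Pcna*, the clamp, had 4214 to 5158 in UGE and 1441 to 1701 in Sca-1Neg (log2 difference 1.58 ± 0.20 SE, adjusted p = 8.18e-05). The loader subunits with the largest differences were *Rfc4*, *Rfc3* and *Rfc5*. *Rfc4* had 500.1, 593 and 573 in UGE, 124, 78.9 and 107 in Sca-1Hi, 171, 151, 139 and 156 in Sca-1Lo and 139.6, 102, 181 and 147 in Sca-1Neg (log2 difference 1.99 ± 0.24 SE, adjusted p = 5.81e-05). *Rfc5* had 809, 1251 and 1143 in UGE, 261, 193 and 219.9 in Sca-1Hi, 226, 246, 185 and 268 in Sca-1Lo and 236, 249.6, 323 and 341 in Sca-1Neg (log2 difference 1.89 ± 0.25 SE, adjusted p = 9.56e-05). Both showed UGE above all adult arrays, with Sca-1Neg overlapping each of the other adult populations. *Rfc3* had 145, 167 and 151 in UGE, 74.3, 206 and 181 in Sca-1Hi, 57.9, 41.1, 169 and 95.9 in Sca-1Lo and 35.4, 36.9, 42.8 and 44.2 in Sca-1Neg (log2 difference 1.96 ± 0.44 SE, adjusted p = 0.00478). Here 1 or more arrays of Sca-1Hi and of Sca-1Lo reached above every UGE array, and Sca-1Neg lay below all UGE and Sca-1Hi arrays. *Rfc1*, the large subunit, and *Rfc2* were higher by 0.99 ± 0.35 SE and 1.27 ± 0.33 SE, and neither these 2 nor *Rfc3* was called between UGE and Sca-1Hi, with differences of 0.24, 0.52 and 0.13. Other probe sets of *Rfc1* (1.67 and 1.28) and *Rfc3* (2.12 ± 0.28 SE, adjusted p = 1.22e-04) were called higher in UGE than in Sca-1Hi, and those of *Rfc2* (0.49 and 0.51) were not.

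Replication protein A coats the single strands that the helicase opens. Its large subunit *Rpa1* had 3427, 4074 and 3438 in UGE, 2713, 1768 and 2094 in Sca-1Hi, 2894, 1912, 3192 and 2812 in Sca-1Lo and 2036, 1836, 3134 and 4204 in Sca-1Neg (log2 difference 0.46 ± 0.31 SE, adjusted p = 0.294). The *Rpa1* groups overlap, since 1 Sca-1Neg array was above every UGE array. The middle subunit *Rpa2* had 571, 614 and 603 in UGE, 113, 105 and 131 in Sca-1Hi, 158, 200.1, 164 and 156 in Sca-1Lo and 178, 136, 244 and 239 in Sca-1Neg (log2 difference 1.62 ± 0.24 SE, adjusted p = 2.78e-04). The small subunit *Rpa3* had 588, 634 and 521 in UGE, 394, 245 and 265 in Sca-1Hi, 367, 282, 339 and 314 in Sca-1Lo and 218, 202, 277 and 189 in Sca-1Neg (log2 difference 1.40 ± 0.24 SE, adjusted p = 7.03e-04). Both small subunits were thus higher in UGE without overlap, while the large one was not called.

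On the lagging strand, *Lig1* seals the fragments, and *Fen1* and *Rnaseh2a* remove primer ends and ribonucleotides. *Lig1* had 1018, 1544 and 1405 in UGE, 358, 391 and 442 in Sca-1Hi, 254, 228, 329 and 310.4 in Sca-1Lo and 205, 201, 304 and 344 in Sca-1Neg (log2 difference 2.35 ± 0.26 SE, adjusted p = 2.96e-05). *Rnaseh2a* had 365, 359 and 304 in UGE, 147, 211 and 147 in Sca-1Hi, 169, 159, 148 and 146 in Sca-1Lo and 179, 131, 198 and 165 in Sca-1Neg (log2 difference 1.04 ± 0.22 SE, adjusted p = 0.00397). In both genes UGE was clear of the adult arrays, by a wider margin in *Lig1*. *Chaf1b*, a subunit of the chromatin assembly factor that lays histones on new DNA, had 366, 503 and 391 in UGE, 95.6, 92.4 and 110.0 in Sca-1Hi, 107, 112, 74.8 and 82.8 in Sca-1Lo and 70.1, 72.9, 122 and 70.3 in Sca-1Neg (log2 difference 2.35 ± 0.26 SE, adjusted p = 2.46e-05). Its second, dimmer probe set showed no such step (0.21 ± 0.31 SE, adjusted p = 0.653).

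The 4 genes of deoxynucleotide supply were higher in UGE than in every adult population, by a nearly equal amount against Sca-1Neg, 2.25 to 2.32. *Rrm1*, the large subunit of ribonucleotide reductase, had 1811, 1608 and 1839.9 in UGE, 427, 243 and 393 in Sca-1Hi, 444, 349.8, 325 and 378 in Sca-1Lo and 369, 343, 315 and 380.4 in Sca-1Neg (log2 difference 2.32 ± 0.24 SE, adjusted p = 1.21e-05). *Rrm2*, its small subunit, which is made in S phase, had 1264, 1086 and 1085 in UGE, 240.3, 130.3 and 208 in Sca-1Hi, 329, 309.6, 179 and 206 in Sca-1Lo and 209.6, 237, 302 and 219 in Sca-1Neg (log2 difference 2.25 ± 0.29 SE, adjusted p = 7.69e-05). *Tk1*, the thymidine kinase of dividing cells, had 506, 445 and 439.9 in UGE, 79.3, 38 and 71.2 in Sca-1Hi, 127, 175, 29.1 and 48.9 in Sca-1Lo and 86.6, 98.4, 157 and 55.4 in Sca-1Neg (log2 difference 2.32 ± 0.54 SE, adjusted p = 0.00634). The adult arrays of *Tk1* spread from 29.1 to 175.4, below every UGE array. *Tyms*, thymidylate synthase, had 523 to 896 in UGE and 108 to 233 in Sca-1Neg (log2 difference 2.25 ± 0.29 SE, adjusted p = 8.36e-05). A second probe set of *Tyms* was not higher in UGE than in Sca-1Neg (0.28 ± 0.27 SE, adjusted p = 0.468) and was lower than in Sca-1Hi (-1.10 ± 0.29 SE, adjusted p = 0.0123). Yet another had 45.7, 157 and 93.1 in UGE, 22.7, 45.1 and 47.2 in Sca-1Hi and 15.5, 18.3, 29.7 and 17.9 in Sca-1Neg. On it UGE lay above all Sca-1Neg arrays and overlapped Sca-1Hi.

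*Fen1* stood apart from the other genes in how its adult arrays divided. Its brightest probe set had 2196, 1055 and 1469 in UGE, 1293, 398 and 478 in Sca-1Hi, 709, 2209, 374 and 383 in Sca-1Lo and 2575, 2379, 473 and 354 in Sca-1Neg (log2 difference 0.58 ± 0.78 SE, adjusted p = 0.617). The study numbers its samples, and the numbers joined to the arrays by their values divide the adult arrays into an early set (numbers 1 and 2, 5 arrays) and a late set (numbers 3 to 5, 6 arrays), without saying what a number stands for. In Sca-1Hi, Sca-1Lo and Sca-1Neg alike, every late array of *Fen1* was below every early one, and the late minus early difference was -2.60 in Sca-1Neg. Against the late Sca-1Neg arrays UGE was higher by 1.88 (adjusted p = 0.00672), and against the early ones the difference was -0.72. A dimmer probe set of *Fen1* read 273, 231 and 251 in UGE, 49.9, 30.4 and 51.5 in Sca-1Hi, 75.8, 109, 47.6 and 39.9 in Sca-1Lo and 93.3, 85.4, 131 and 44.6 in Sca-1Neg, with UGE higher than Sca-1Neg (1.60 ± 0.40 SE, adjusted p = 0.00878). On this probe set the 3 UGE arrays were above all 11 adult arrays. *Gmnn* had the same direction of early and late arrays as *Fen1* in all 3 adult populations. The opposite, late arrays above early ones in each adult population, held for 8 genes: *Orc4*, *Gins4*, *Pola2*, *Pold1*, *Rfc1*, *Rfc2*, *Rfc3* and *Lig1*. How many of all genes divide in either way was not counted. Sca-1Hi has only 1 early and 2 late arrays, so a division there is easily reached. With the early and late numbers as a block over all arrays, 39 of the 44 genes were higher in UGE than in Sca-1Neg; this block was chosen after the data were seen.

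**Figure D3:**
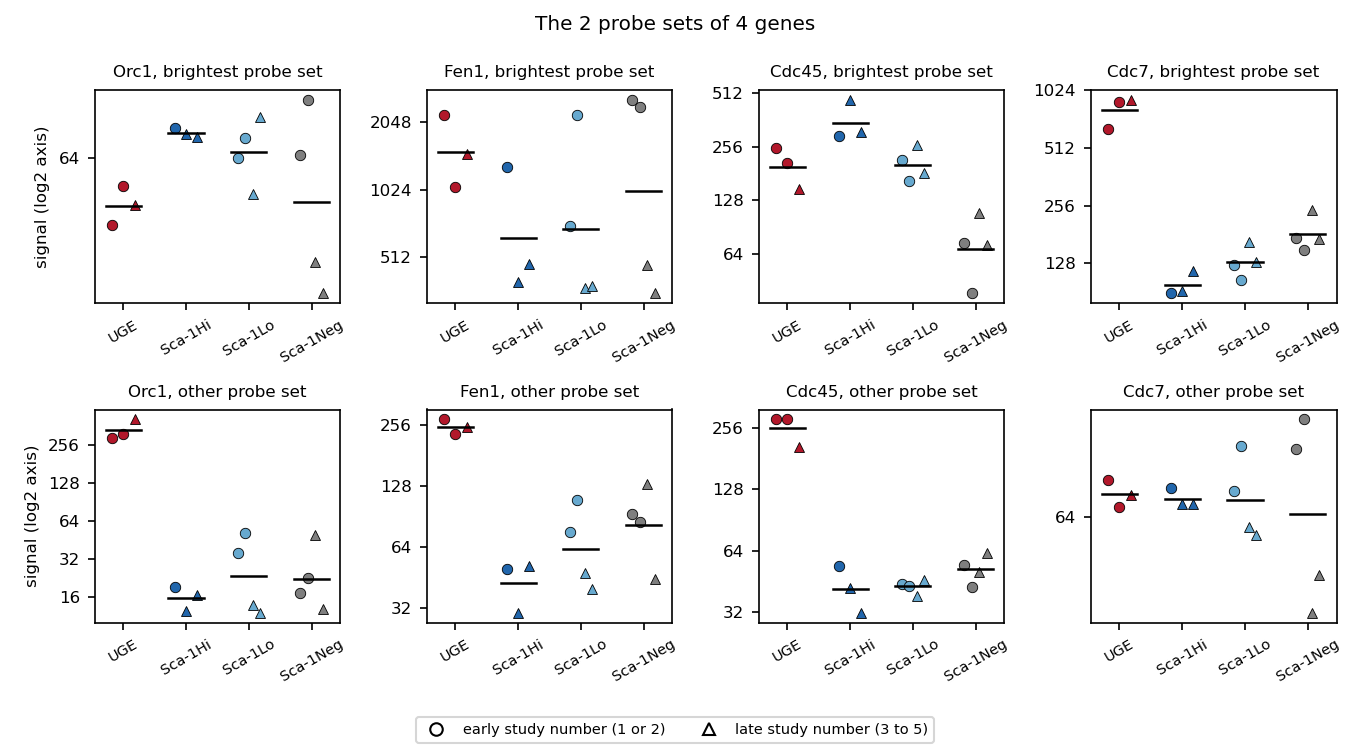
Signal on a log2 axis of the brightest probe set (top) and another probe set (bottom) of *Orc1*, *Fen1*, *Cdc45* and *Cdc7* in UGE, Sca-1Hi, Sca-1Lo and Sca-1Neg, with 1 point an array, circles for early and triangles for late study numbers, and a line at the mean of the log2 signals; each panel has its own axis. The lower panels of *Orc1*, *Fen1* and *Cdc45* show the UGE arrays above all adult arrays, which the upper panels do not.

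Over all 44 genes, 30 had more than 1 probe set, 46 in addition to those used. In UGE versus Sca-1Neg 38 of these 46 had the same call as the probe set that represents the gene, 32 being called higher, and none had the opposite call. In UGE versus Sca-1Hi 27 of 46 had the same call, and 19, belonging to 16 genes, had another one, of which 1 was opposite (*Tyms*). In UGE versus Sca-1Lo 31 had the same call, and 15, belonging to 12 genes, another one, none opposite. In Sca-1Hi versus Sca-1Neg 36 of 46 had the same call, and 10, belonging to 9 genes, another one, none opposite. *Orc1*, *Orc4*, *Rpa1* and *Fen1*, called against no adult population by their brightest probe sets, each had another probe set called higher in UGE than in Sca-1Hi.

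Between the adult populations the replication genes differed little. In Sca-1Hi versus Sca-1Neg 5 of 44 were higher (11.4%, background 6.11%) and 2 lower (4.55%, background 5.21%), and the median difference was -0.04, against 0.03 over all genes. In Sca-1Lo versus Sca-1Neg 1 was higher (2.27%, background 1.68%) and none lower (background 0.828%), with a median of 0.12. No gene was called between Sca-1Hi and Sca-1Lo, where limma called 0.0816% of all genes higher and 0.0175% lower. An unadjusted limma p under 0.05 was reached there by 4 of the 44 and by 1374 of all 17149 genes. The shares called in the adult comparisons were thus small.

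The genes higher in Sca-1Hi than in Sca-1Neg were *Cdc45* as given above, *Rfc3* (log2 difference 1.83 ± 0.44 SE, adjusted p = 0.017), *Pold1* (log2 difference 1.32 ± 0.31 SE, adjusted p = 0.0155), *Mcm7* (log2 difference 0.93 ± 0.27 SE, adjusted p = 0.0399) and *Mcm6* (log2 difference 0.90 ± 0.27 SE, adjusted p = 0.0463). The lower ones were *Gmnn* (log2 difference -1.22 ± 0.36 SE, adjusted p = 0.0415) and *Cdc7* (log2 difference -0.88 ± 0.25 SE, adjusted p = 0.0359). In each of the 7 the 3 Sca-1Hi arrays lay on 1 side of all 4 Sca-1Neg arrays. Of the 44 genes 15.9% lay above and 11.4% below in this way, near the 12.3% and 8.79% of all genes. The genes do not belong to a single role. Of the partners that were not called, *Dbf4* differed by -0.27, and *Mcm2* and *Mcm5* by -0.04 and -0.15. *Cdc45* was the only one that also passed in Sca-1Lo, where *Mcm6*, *Mcm7*, *Pold1* and *Rfc3* differed from Sca-1Neg by 0.56, 0.41, 0.46 and 0.99, and *Gmnn* and *Cdc7* by -0.62 and -0.49. None of these 7 was called between Sca-1Hi and Sca-1Lo.

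Other probe sets of these genes did not all follow. One of the other 2 of *Mcm6* (0.85) and 1 of the other 3 of *Mcm7* (0.99) were also called higher in Sca-1Hi. The remaining ones of *Mcm6* (0.64) and *Mcm7* (0.25 and 0.45) and the second ones of *Pold1* (0.76), *Rfc3* (0.27), *Cdc45* (-0.32) and *Cdc7* (0.14) were not called. *Gmnn* has 1 probe set. The 5 genes higher in Sca-1Hi had UGE means above the Sca-1Neg mean as well, whereas *Gmnn* and *Cdc7* were high in UGE and low in Sca-1Hi, with the Sca-1Neg arrays in between.

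**Figure D4:**
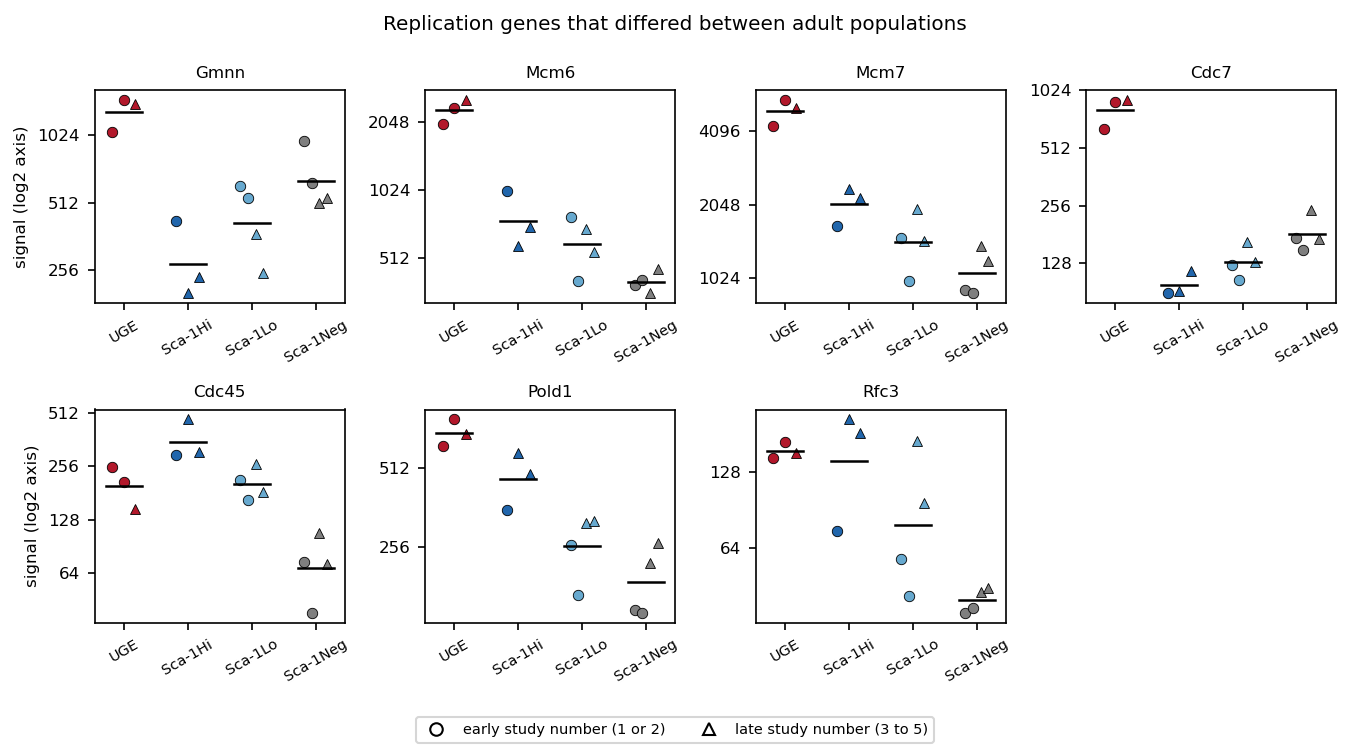
Signal on a log2 axis of the 7 genes that were called between adult populations, in UGE, Sca-1Hi, Sca-1Lo and Sca-1Neg, with 1 point an array, circles for early and triangles for late study numbers, and a line at the mean of the log2 signals; each panel has its own axis. *Mcm6*, *Mcm7*, *Cdc45*, *Pold1* and *Rfc3* lie higher in Sca-1Hi than in Sca-1Neg, and *Gmnn* and *Cdc7* lie lower.

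Several measures moved with this comparison. Of 10 endothelial markers 9 were higher in Sca-1Hi than in Sca-1Neg, with a summed signal of 13712 to 23862 in Sca-1Hi and 1578 to 4376 in Sca-1Neg, and of 19 leukocyte markers 15 were lower, with 1825 to 3704 in Sca-1Hi and 7176 to 64437 in Sca-1Neg. *Ptprc*, *C1qc*, *Cx3cr1* and *Cd3g* were at or under 20 on every Sca-1Hi array, and *Pecam1* on every Sca-1Neg array. Of 10 epithelial markers 5 were higher in Sca-1Hi (summed signal 36373 to 43431 in Sca-1Hi and 7468 to 32765 in Sca-1Neg), and 4 of 8 smooth muscle and pericyte markers (8139 to 24651 in Sca-1Hi and 26283 to 86138 in Sca-1Neg), 2 of 8 secretion genes and 1 of 10 fibroblast and mesenchyme markers were lower. The log2 ratio of the 3' to the 5' probe set of *Gapdh*, a measure of RNA integrity and labelling, was 3.07 to 3.48 in Sca-1Hi and 1.66 to 2.75 in Sca-1Neg. The part of cell makeup and of RNA in the 7 calls was not tested. Late study numbers make up 2 of 3 Sca-1Hi arrays and 2 of 4 Sca-1Neg arrays. With a block for early and late numbers within the adult populations the counts stayed at 5 higher and 2 lower, with differences of 1.67 for *Rfc3*, 1.21 for *Pold1* and -1.09 for *Gmnn*. Within the early arrays alone, 1 Sca-1Hi and 2 Sca-1Neg, the differences were 2.47 for *Cdc45*, 1.04 for *Rfc3*, 1.29 for *Pold1*, 0.90 for *Mcm7*, 1.35 for *Mcm6*, -0.87 for *Gmnn* and -0.85 for *Cdc7*. Within the late arrays they were 2.11, 2.15, 1.14, 0.82, 0.66, -1.25 and -0.98 in the same order of genes. Only *Cdc45* passed the test in both sets. Leaving out Sca-1Hi replicate 2 or replicate 3 left *Cdc45* as the only call, and leaving out Sca-1Lo replicate 1 or 4, Sca-1Neg replicate 1, 2 or 4 or UGE replicate 2 or 3 left 3 higher. With the study's own sample numbers as a block, chosen after the data were seen, 3 were higher (*Cdc45*, *Pold1* and *Rfc3*) and 0 lower. The lower calls were 1 without Sca-1Hi replicate 1, Sca-1Lo replicate 1, Sca-1Neg replicate 3 or UGE replicate 2 or 3, and 0 without Sca-1Neg replicate 1 or 4. In Sca-1Lo versus Sca-1Neg the call of *Cdc45* was lost without Sca-1Lo replicate 1, 3 or 4 or Sca-1Neg replicate 1 or 2, and in the early arrays (1.82) and the late arrays (1.31) alone.

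Further genes of the same pathway were taken from 5 lists with 59 measured genes. In UGE versus Sca-1Neg 38 of 59 were higher (64.4%, background 16.3%) and 1 lower (1.69%, background 12.9%), with a median difference of 1.23. Against Sca-1Hi 38 were higher and none lower (background 15.8% and 12.0%). Against Sca-1Lo 37 were higher and none lower (background 13.4% and 12.2%). Among fork protection and clamp handling factors 9 of 12 were higher in UGE than in Sca-1Neg, led by the checkpoint mediator *Clspn* (3.96 ± 0.34 SE), the alternative clamp loader subunit *Dscc1* (3.62), the clamp unloader *Atad5* (2.77) and *Timeless* (2.71). Chromatin factors behind the fork were higher in 7 of 7 cases, with *Uhrf1*, which guides DNA methylation to new strands, at 3.95 ± 0.28 SE, the histone chaperones *Nasp* and *Asf1b* at 2.65 and 2.29 and the maintenance methyltransferase *Dnmt1* at 1.92.

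Further firing factors were higher in 6 of 12 cases, led by *Wdhd1* (3.29 ± 0.28 SE), *Topbp1* (2.08), *Mtbp* (1.46) and the fourth GINS subunit *Gins3* (1.40). The remaining polymerase subunits were higher in 3 of 6, *Pole2* (2.19), *Pold3* (1.39) and *Pole3* (0.91). In nucleotide supply 13 of 22 were higher, led by the deaminase *Dctd* (3.51 ± 0.24 SE), the kinase *Dck* (2.86), the dUTPase *Dut* (2.13) and *Umps* (1.51). *Samhd1*, which degrades deoxynucleotides, was the 1 gene of the 5 lists lower in UGE (log2 difference -0.92 ± 0.26 SE, adjusted p = 0.0172). In Sca-1Hi versus Sca-1Neg 2 of the 59 were higher, *Timeless* (1.36) and *Shmt1* (1.02), and 2 were lower, the nuclease *Dna2* (-1.54) and *Dck* (-1.10). These shares, 3.39% each, were below the background of 6.11% higher and 5.21% lower. No gene of these lists was called between Sca-1Lo and Sca-1Neg (background 1.68% higher and 0.828% lower) or between Sca-1Hi and Sca-1Lo (0.0816% and 0.0175%).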

How the data were processed

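Expression was measured on 14 Affymetrix MOE430 2.0 arrays, 1 sample each. The authors derived the deposited intensity values, PLIER signals on a linear scale, with ArrayAssist from scanned arrays; MAS5 detection calls were not used here, and the step that normalizes between arrays is not given in the sources used here. RNA of the sorted cells was amplified over 2 labelling cycles, which can favour the 3' ends of transcripts, and the number of arrays limits the precision. The 41031 probe sets that exceeded 20 on any array were fitted as log2 signal, with no constant added, by limma 3.58.1 in R 4.3.3, with 4 group means in a single fit and Benjamini-Hochberg adjustment for each of 6 comparisons. A gene took its probe set with the highest mean (17149 genes). Where the mean of a population was under 20, its arrays under 20 were set to 20 and the fold is a bound. Fits were tested on simulated data.

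The 44 genes and the lists were chosen with earlier results of these data known. Every one of the 44 is named. Signals of every array are given for up to 3 members a role with the largest difference between UGE and Sca-1Neg, for members called between adult populations and for members not called between UGE and Sca-1Neg; of other lists up to 4 called genes a direction are named. Signals were scaled, filtered, summarized and weighted in other ways, arrays were left out in turn, and study numbers were used as a block or to divide the adult arrays. The replicate numbers of the labels and the study's own sample numbers differ for some arrays of Sca-1Hi, Sca-1Lo and Sca-1Neg. Same-numbered arrays deviated together in Sca-1Lo and Sca-1Neg, where all 4 pairs were correlated above 0.1 (0.12 to 0.56) under either numbering. In each other comparison 1 or 2 of 3 pairs by the labels were above 0.1, and the study's numbers gave only 2 pairs. Promoters came from RefSeq (GRCm38.p6). Tables and figures were made with Python 3.11.15, pandas 2.3.3, numpy 2.4.6 and matplotlib 3.10.9.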

Additional observations from a re-analysis of the deposited data

Results flagged for a closer look

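A sample far from the others of its population was found in 2 of 90 groups of 4 arrays, where chance gives about 1 in 20. *Mcm4* in Sca-1Lo had a signal of 367.7 on replicate 2, against 940.3, 1041 and 917 on replicates 1, 3 and 4 (gap over range 0.878 on the log2 scale). *Chaf1b* in Sca-1Neg had 122 on replicate 3, against 70.1, 72.9 and 70.3 on replicates 1, 2 and 4 (gap over range 0.931 on the log2 scale). Both genes were called higher in UGE than in Sca-1Lo and in Sca-1Neg.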

How the results depend on the processing

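No alternative turned the direction of the 44 genes as a whole in UGE. Leaving out 1 array gave 34 to 39 genes higher in UGE than in Sca-1Neg, 32 to 34 than in Sca-1Hi and 31 to 35 than in Sca-1Lo, and the other alternatives gave 31 to 40, 28 to 38 and 32 to 37. Quantile normalization and centring on the 75th percentile each gave 34 against Sca-1Neg, with a median of 1.71. Over all probe sets, centring moved the median difference of UGE and Sca-1Neg to -0.13 (0.08 as deposited) and the share of higher among called probe sets to 46.4% (57.8%), and for UGE and Sca-1Lo to 40.6% (52.0%); quantile normalization moved that share to 54.1% (64.1%) for Sca-1Hi and Sca-1Neg. The replicate block gave 38 higher in UGE than in Sca-1Neg (median 2.02), 34 than in Sca-1Hi, 33 than in Sca-1Lo and, in Sca-1Hi versus Sca-1Neg, 4 higher and 2 lower. In Sca-1Lo versus Sca-1Neg, the comparison whose same-numbered arrays paired, it gave 1 higher, and it moved no count of the members by over 1.5 times. The replicate block with the study's own numbers, chosen after the data were seen, gave 39, 36 and 35 higher in UGE than in Sca-1Neg, Sca-1Hi and Sca-1Lo, 3 higher and 0 lower in Sca-1Hi versus Sca-1Neg and 1 higher in Sca-1Lo versus Sca-1Neg.

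1 gene was lower in UGE than in Sca-1Hi under centring on the 75th percentile (*Cdc45*, -0.98), array weights (*Cdc45*, -1.06) and the second brightest probe set (*Tyms*, -1.10). In Sca-1Hi versus Sca-1Neg the genes higher numbered 0 by the methods' t-test, here adjusted over all probe sets that exceeded 20 on any array. The test was run on log2 signals with no constant added, whereas the study's log ratios were matched here after 16 was added. The paper also describes narrowing its transcripts further before this test, so the count need not match the study's own result. Other counts were 2 with the 2 groups compared alone or the second brightest probe set, 9 with array weights and 3 in late arrays. With 1 array left out the genes higher numbered 1 to 5. The genes lower numbered 1 with 16 added, centring or the mean of probe sets, 0 by the t-test, with the 2 groups alone or in early arrays, and 0 to 2 with 1 array left out. In Sca-1Lo versus Sca-1Neg array weights gave 4 higher and 2 lower, the t-test, the 2 groups alone, the mean, the second probe set and the early or late arrays gave 0 higher, and leaving out 1 array gave 0 to 1. The median of Sca-1Hi versus Sca-1Lo was 0.068 in early arrays and -0.17 to 0.048 (without Sca-1Hi replicate 2) with 1 array left out.

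Signs turned for single genes. *Orc1* in UGE versus Sca-1Neg was 0.0011 with quantile normalization, 1.94 as the mean of probe sets, 3.90 on the second probe set, 0.42 against late arrays and -0.20 to 0.18 with 1 array left out, positive without UGE replicate 1 or Sca-1Neg replicate 1 or 2. In UGE versus Sca-1Hi and Sca-1Lo, *Orc1* was 1.99 and 1.76 as the mean and 4.41 and 3.83 on the second probe set, and *Cdc45* was 0.90 and 1.27 as the mean and 2.62 and 2.58 on the second probe set. *Cdc45* in UGE versus Sca-1Lo was also 0.0012 with early and late numbers as a block, 0.048 with the study's numbers as a block, 0.072 against early arrays and -0.21 to 0.17 with 1 array left out. *Rfc3* in UGE versus Sca-1Hi was -0.029 with centring, -0.13 with array weights, -0.33 against late arrays and -0.33 to 0.41 with 1 array left out. *Fen1* in UGE versus Sca-1Neg was -0.46 with array weights, -0.072 with the study's numbers as a block and -0.72 against early arrays. Second probe sets gave -0.074, -0.70 and -0.28 for *Pola2* in UGE versus Sca-1Neg, Sca-1Hi and Sca-1Lo, -0.70 and -0.33 for *Chaf1b* and -1.10 and -0.34 for *Tyms* in UGE versus Sca-1Hi and Sca-1Lo, -0.082 for *Mcm10* in UGE versus Sca-1Lo, 0.14 for *Cdc7* and -0.32 for *Cdc45* in Sca-1Hi versus Sca-1Neg and -0.28 for *Cdc45* in Sca-1Lo versus Sca-1Neg. The cause was not tested. Of 264 differences (44 genes in 6 comparisons), the 140 that compare UGE or were called kept direction and call under alternatives in 4051 cases, lost the call in 203, gained it with the same sign in 56 and turned in 38. Over all 264, calls were gained in 82 cases by 17 genes, 10 of them with the sign turned. With early arrays alone Sca-1Hi has 1 array, assumed to vary like the others. The fit of the array weights gave a convergence warning.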

Other observations

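Genes of mitosis, which follows DNA replication, were higher in UGE than in each adult population in 23 of 23 cases. Of all genes 16.3%, 15.8% and 13.4% were higher against Sca-1Neg, Sca-1Hi and Sca-1Lo. The median log2 differences of the 23 were 3.39 from Sca-1Neg, 3.60 from Sca-1Hi and 3.73 from Sca-1Lo. Limma called none of the 23 between adult populations. In Sca-1Hi versus Sca-1Neg the background was 6.11% higher and 5.21% lower. The kinesin *Kif20a* was at least 17.9-fold higher in UGE than in Sca-1Neg, where its mean signal was under 20. The spindle checkpoint kinase *Bub1* differed by 4.08 ± 0.31 SE, the topoisomerase *Top2a* by 3.79 ± 0.37 SE and the kinesin *Kif23* by 3.74 ± 0.26 SE. Of 8 E2f factors 4 were higher in UGE than in Sca-1Neg (50%, background 16.3%). The repressor *E2f7* was at least 16.6-fold higher, *E2f8* differed by 2.92 ± 0.33 SE, *E2f3* by 2.30 ± 0.29 SE and *E2f6* by 1.25 ± 0.25 SE, while *E2f1* had log2 difference -0.61 ± 0.30 SE, adjusted p = 0.149. *E2f6* was lower in Sca-1Hi than in Sca-1Neg (log2 difference -0.97 ± 0.25 SE, adjusted p = 0.0229).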
